A study of Homo sapiens with 15 samples.

Results

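The genes described here were raised in A673 cells by endogenous EWS/FLI (endo-EF) and by re-expressed wild-type EWS/FLI (WT-EF), while their level with the DAF mutant stayed near that of EWS/FLI-depleted cells. They were chosen from their measured values. Counts were scaled to library size as CPM with TMM factors, put on a log2 scale with a prior count of 2 and averaged over the 3 libraries of each condition. A gene was a member when its mean count over the 15 libraries was at least 20, iLuc exceeded iEF by at least 1, WT-EF exceeded iEF by at least 1.5, and DAF was within 0.25 of iEF, all in log2 CPM. The rule gave 72 genes of the 15467 that met the count minimum. Of 628 genes that met the iLuc and WT-EF limits, the 72 members were 11.46%, while 530 genes (84.4%) lay above the DAF window and 26 (4.14%) below it.

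A673 is an Ewing sarcoma cell line, and all 15 RNA-seq libraries come from this 1 line, in 5 conditions of 3 libraries. In iLuc cells, which kept endo-EF, an shRNA against luciferase was combined with an empty vector. In iEF cells the empty vector accompanied an shRNA that targets EWS/FLI. The rescued cells carried this latter shRNA together with a cDNA for WT-EF, Δ22 or DAF. Nearly all of the EWS domain is missing from Δ22. In DAF, tyrosines in the N-terminal region of that domain are changed to alanine, while tyrosines further along it are kept. Retrovirus delivered the shRNA first, on day 1, then the cDNA on day 5. Every condition was held in 2 µg/mL puromycin and 400 µg/mL hygromycin B until day 16. The labels number the replicates within a condition, and the study describes this schedule as 1 replicate and adjusted its replicate sets for batch. The p-values thus measure the spread between repeats in 1 cell line.

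EWS/FLI joins the N-terminal part of EWS, a disordered domain rich in repeats that contain tyrosine, to the ETS DNA-binding domain of FLI. The ETS domain binds GGAA sequences, and in Ewing sarcoma the fusion also occupies long runs of GGAA repeats, from which it can activate genes. The tyrosines of the EWS domain are known to take part in self-association of the fusion and in its recruitment of chromatin remodelling complexes.

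The GGAA runs close to the members are shown first, since this sequence is what the DNA-binding part, which WT-EF, Δ22 and DAF all keep, recognises. Runs of at least 4 uninterrupted GGAA repeats were searched on both strands of GRCh37 around the start of each gene. Of the 72 members, 71 matched the annotation, and 7 of these had such a run within 5 kb. Coordinates are those of the repeat on GRCh37, capitals mark the repeat, and 10 further bases are printed on each side, written 5′ to 3′ on the strand that reads GGAA.
NEUROD6: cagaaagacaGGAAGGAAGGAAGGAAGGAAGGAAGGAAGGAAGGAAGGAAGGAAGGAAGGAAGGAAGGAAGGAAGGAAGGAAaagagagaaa
RHOH: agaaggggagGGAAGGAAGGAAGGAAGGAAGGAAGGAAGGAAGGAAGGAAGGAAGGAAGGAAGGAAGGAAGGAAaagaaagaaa
SLAIN1: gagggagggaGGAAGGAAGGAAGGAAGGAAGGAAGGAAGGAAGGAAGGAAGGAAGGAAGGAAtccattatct
ENSG00000266578: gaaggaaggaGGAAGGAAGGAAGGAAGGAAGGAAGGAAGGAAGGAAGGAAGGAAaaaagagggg
SLC16A12: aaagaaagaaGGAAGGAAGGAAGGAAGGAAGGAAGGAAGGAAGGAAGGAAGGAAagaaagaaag
QPRT: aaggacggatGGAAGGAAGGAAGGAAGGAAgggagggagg
RINL: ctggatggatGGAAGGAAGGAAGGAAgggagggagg
The run near NEUROD6 (chr7:31383536-31383607, minus strand) had 18 repeats and lay between genes, 3196 bases upstream of the gene start. That of RHOH (chr4:40196975-40197038, minus strand) had 16 repeats in an intron of RHOH, 4344 bases downstream of its start. That of SLAIN1 (chr13:78267707-78267758, minus strand) had 13 repeats between genes, 4064 bases upstream. These are the longest runs of the set, and they belong to a neuronal bHLH transcription factor, an atypical small GTPase of blood cells and a protein of growing microtubule ends. ENSG00000266578, for which no symbol was matched, had 11 repeats 2166 bases upstream (chr18:3281909-3281952, minus strand), between genes. SLC16A12, a creatine transporter, had 11 repeats in its own intron, 2495 bases downstream of its start (chr10:91313860-91313903, plus strand). The runs of QPRT, an enzyme of NAD synthesis (chr16:29671056-29671075, minus strand, between genes), and of RINL (chr19:39368445-39368460, minus strand, in an intron of RINL) were shorter, with 5 and 4 repeats.

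A run of 4 or more repeats within 5 kb was present for 9.86% of members, for 13.8% of the genes whose DAF value lay above the window (72 of 521 with annotation) and for 3.42% of all annotated genes that met the count minimum. For runs of 8 or more repeats the shares were 7.04%, 10.2% and 1.20%. Within 100 kb, 69.0% of members, 75.8% of the genes above the DAF window and 54.8% of all genes had a run of 4 or more. The median distance from the gene start to the nearest run was 46208 bases for members, 38786 bases for the genes above the window and 86632 bases for all genes. Members thus lay between both groups on each of these measures, nearer to the genes above the window, and no test of these differences was made. The shares are descriptions of the reference sequence, and occupancy by EWS/FLI was not measured in these libraries.

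**Figure D1:**
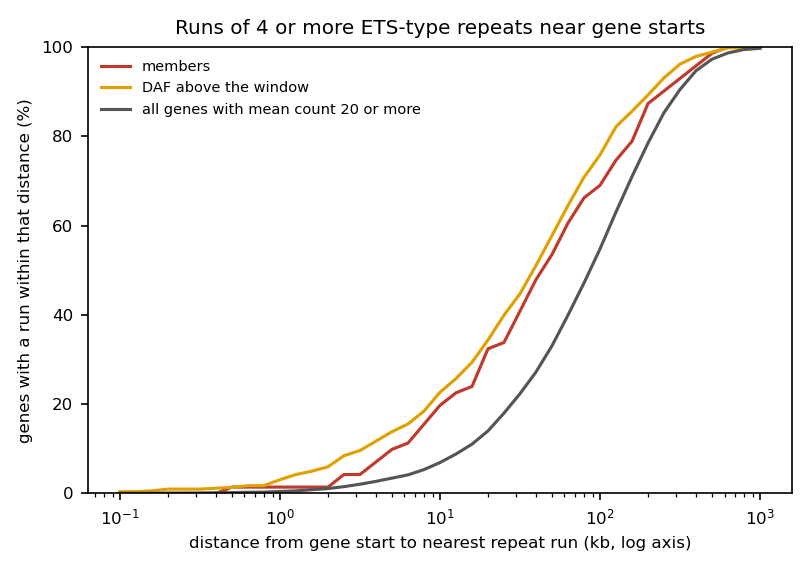
Percent of genes (vertical axis) whose start lies within a given distance in kb (horizontal axis, log scale) of a run of 4 or more GGAA repeats on GRCh37, for the 71 annotated members (red), the 521 annotated genes above the DAF window (yellow) and all 15118 annotated genes with a mean count of at least 20 (grey). At 100 kb the lines stand at 69.0%, 75.8% and 54.8%.

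Sequence directly at the start was searched for shorter ETS motifs. RefSeq promoter sequences on GRCh38, which span the gene start, were matched for 48 members. Both strands were searched. GGAA was present in 93.8% of them and in 95.2% of 11094 promoters. The ETS motif CCGGAAGT was found in none of the 48, against 8.49% of all promoters, and the tandem GGAAGGAA, which contains GGAA, in 1 (2.08%, against 3.45%). The member with the tandem was KCNIP1, a calcium sensor of potassium channels. The median GC content was 65% in both sets.

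Total counts per library ran from 28659475 to 41859880 (median 32943231), and libraries of a condition differed by more than counting noise, with a chi-square per gene of 12.9 to 83.2. FLI1, whose counts cover the fusion and the cDNA together, was at 48.0, 47.8 and 52.4 CPM in the iLuc libraries and 12.9, 15.5 and 15.3 CPM in the iEF libraries. It was at 16.0, 18.02 and 18.7 CPM with WT-EF, 24.4, 32.9 and 36.2 CPM with Δ22 and 22.1, 23.6 and 27.3 CPM with DAF. The depleted libraries were thus the lowest, and every Δ22 and DAF library held more FLI1 than every WT-EF library. How far FLI1 level bears on the values below was not tested. The Ewing sarcoma markers STEAP1, PRKCB, LIPI, BCL11B and CCND1 were expressed, with CCND1 at 1746 ± 60.1 CPM (SD, n = 3) in iLuc cells. CD99, the surface marker of this tumour, had at most 3 counts in any library. The gene lies in the pseudoautosomal region, where X and Y share sequence, and whether reads were lost there was not tested, so its expression cannot be read from these counts. Of the markers of other cell types, EPCAM, PTPRC, CDH5 and VWF averaged under 1 CPM in every condition, and the epithelial KRT19 and the monocyte gene CD14 reached 1.10 CPM in iEF and 2.36 CPM in DAF libraries. CDH1, KRT5 and CD3E averaged under 1 count per library, and PECAM1 was not analysed here.

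By the rule, depletion lowered every member and WT-EF raised it again. The median difference from iEF over the 72 members was 2.95 in log2 CPM for iLuc (1.20 to 7.18) and 1.97 for WT-EF (1.5 to 4.32), against medians of -0.01 and -0.04 over all 15467 genes. These are values that chose the members, so they are given without a test. In the model over all genes, 19.5% of 28793 genes were called higher in iLuc and 12.9% higher in WT-EF at an adjusted p under 0.05 (quasi-likelihood test of edgeR, Benjamini-Hochberg adjustment). All 72 members were called higher in iLuc and 71 in WT-EF, a count that the rule itself favours. The exception with WT-EF was IL1RAPL2 (adjusted p = 0.0982, same edgeR test), a synaptic adhesion receptor on the X chromosome, which stood at 0, 0.641 and 0.0291 CPM in iEF and 0.222, 0.555 and 1.81 CPM in WT-EF libraries. iLuc libraries lay wholly above iEF libraries for 71 members (33.4% of all genes with a mean count of at least 20). WT-EF libraries did so for 65 members (22.6% of all genes) and were wholly above DAF libraries for 63 (23.9%).

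The extent of restoration varied among members. WT-EF reached a median of 65.6% of the iLuc CPM. In 14 members the WT-EF mean was at or above the iLuc mean, and in 28 it was lower by more than 1 in log2 CPM. C6, a component of the complement membrane attack complex, marked the low end. It was at 15.7, 17.4 and 21.4 CPM in iLuc, 0.0263, 0.135 and 0.0582 CPM in iEF and 0.0831, 0.608 and 1.30 CPM in WT-EF libraries, so WT-EF reached 3.67% of the iLuc level. SLAIN1, which binds growing microtubule ends, exceeded its iLuc level, at 137% of it.

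With DAF the median difference over the members was 0.04 (-0.24 to 0.25), against -0.03 over all genes, and no member was called higher or lower in DAF, where 5% and 6.19% of all genes were. The window fixed this count. How closely DAF matched iEF in single replicate sets was not fixed in the same way, and it was loose. DAF minus iEF within the same replicate number stayed within 0.25 in all 3 sets for 9 members, in 2 sets for 23, in 1 set for 18 and in no set for 22. The same count was not made over all genes, so whether the members differ from other genes in this is not known. The standard error of the DAF log2 fold change in the edgeR fit had a median of 0.38 (0.10 to 2.77). It was under 0.25 for 18 members and 0.5 or more for 22, so for these members a small rise with DAF was not detectable at this depth and replication. Mean counts were low, under 50 for 25 members and 200 or more for 26.

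**Figure D2:**
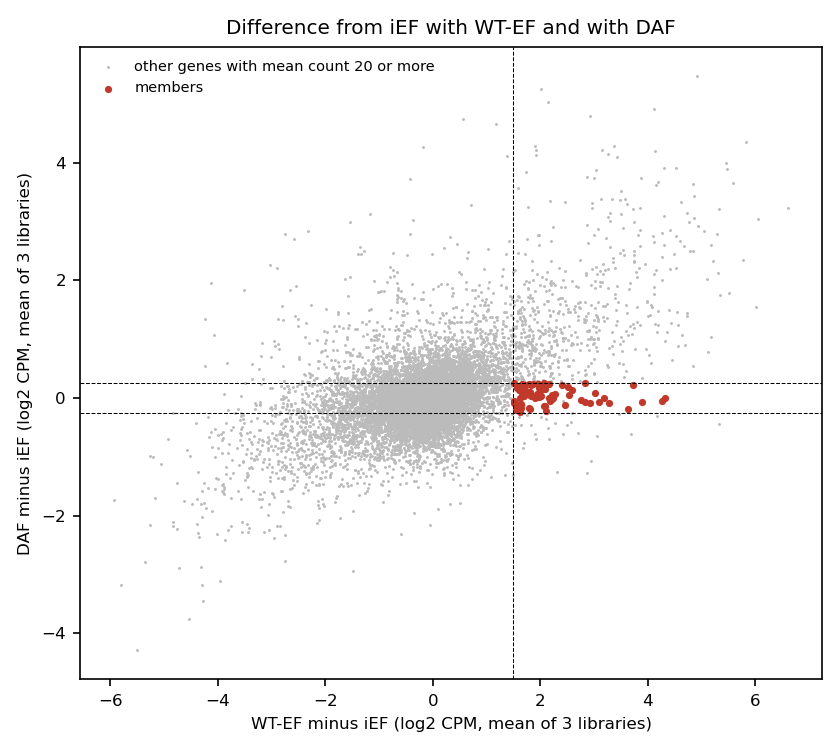
Difference from iEF in log2 CPM (means of 3 libraries) with WT-EF (horizontal axis) and with DAF (vertical axis) for the 72 members (red) and the other genes with a mean count of at least 20 (grey). Dashed lines mark the WT-EF limit of 1.5 and the DAF window of 0.25 on either side of 0. Members fill the strip to the right of the WT-EF limit and between the DAF lines, with WT-EF values from 1.5 to 4.32, and 530 of the 628 genes that met the iLuc and WT-EF limits lie above the strip.

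In the iEF, Δ22 and DAF conditions, libraries with the same replicate number moved together over the members. Set against the mean of the iEF libraries, the median over members was -0.17, 0.38 and -0.18 in iEF libraries 1, 2 and 3. The same medians were -0.31, 0.43 and -0.08 with Δ22 and -0.34, 0.43 and -0.10 with DAF. Library 2 was thus the highest in each of these conditions, and by a similar amount. It was also the highest in iLuc, where the medians were 2.89, 3.15 and 2.75. The same medians over all genes are not given here, so this may not be particular to the members. With WT-EF the medians were 1.52, 2.07 and 2.55. Taken against the iEF library of the same number, the WT-EF median was 1.69, 1.63 and 2.69, and the difference was largest in set 3 for 61 of the 72 members. FLI1 in the WT-EF library of set 3 was 18.7 CPM, the highest of the WT-EF libraries, and its part in this difference was not tested.

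**Figure D3:**
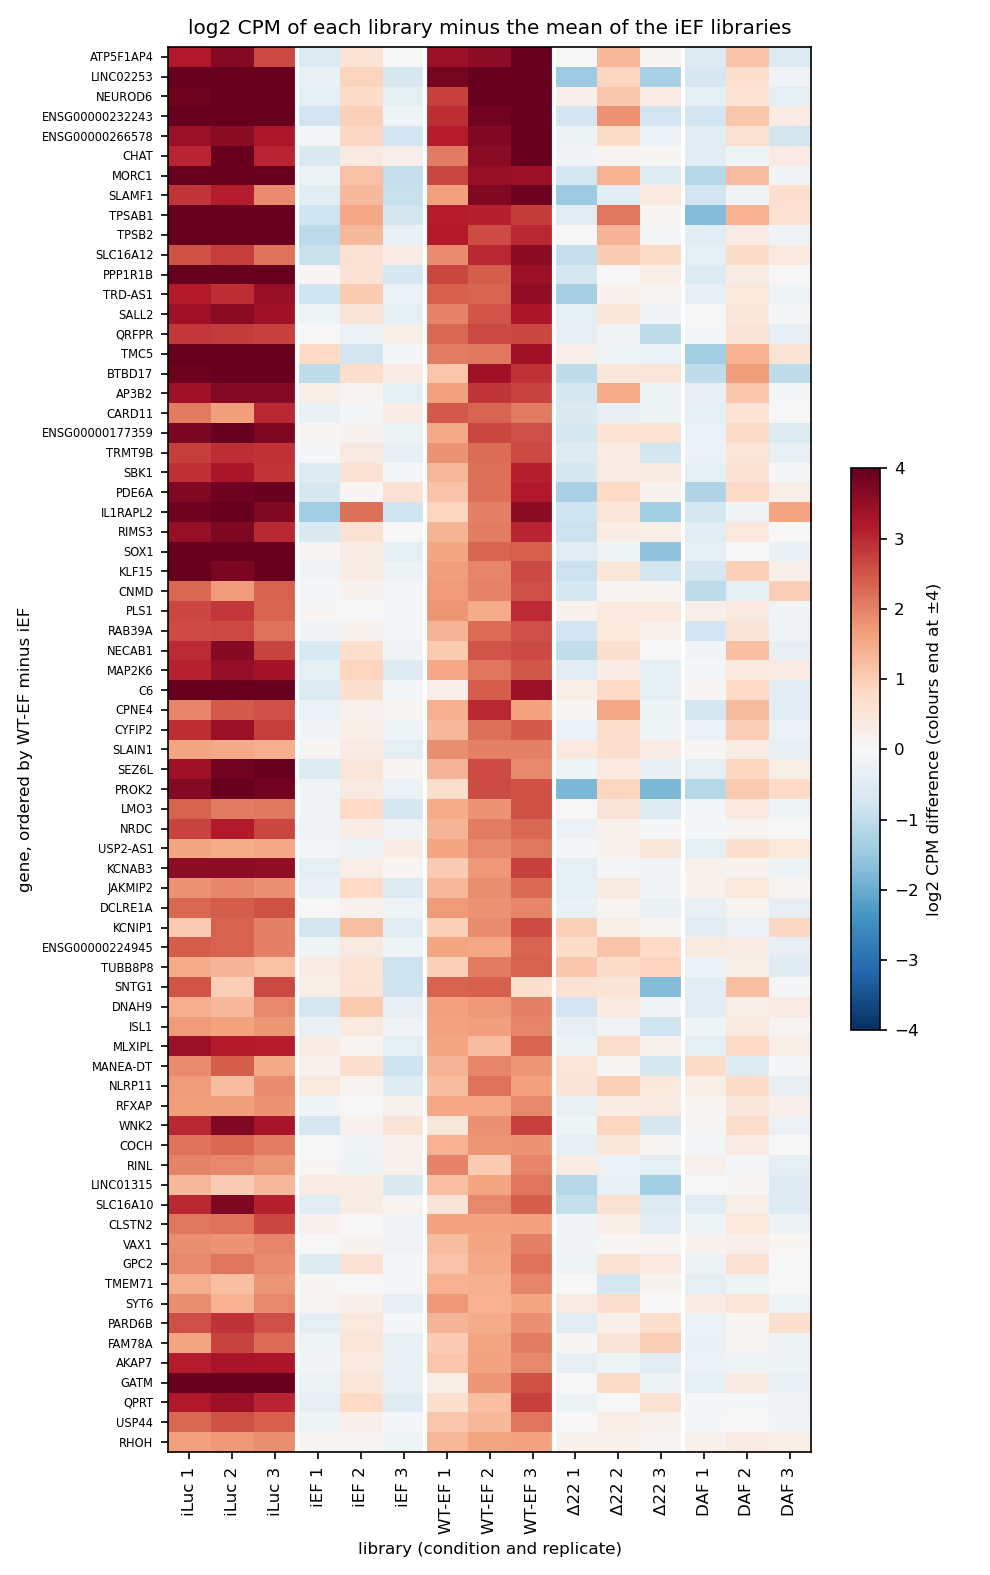
Log2 CPM of 71 of the 72 members (vertical axis, ordered by WT-EF minus iEF) in each of the 15 libraries (horizontal axis), minus the mean of the iEF libraries of that gene. Red is higher and blue lower, with colours ending at a difference of 4 on either side. The iLuc and WT-EF columns are red for nearly every gene, with medians over all 72 members of 2.89, 3.15 and 2.75 in iLuc and 1.52, 2.07 and 2.55 in WT-EF libraries, while the iEF, Δ22 and DAF columns are pale with library 2 the warmest of each.

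Several members encode transcription factors of neural and endocrine development. SALL2, a zinc finger factor at chr14:21989231-22005350, was at 100.5, 116 and 101.4 CPM in iLuc and 8.57, 13.7 and 7.45 CPM in iEF libraries. It reached 38.2, 54.9 and 92.0 CPM with WT-EF and 9.56, 13.1 and 9.29 CPM with DAF. Its WT-EF libraries were all above its iEF and DAF libraries, with the WT-EF mean 6.22-fold the iEF mean. ISL1, a LIM-homeodomain factor of motor neurons and islets (chr5:50679282-50690564), was at 7.49, 7.10 and 7.91 CPM in iLuc, 1.89, 3.04 and 2.06 CPM in iEF, 7.03, 7.43 and 8.97 CPM in WT-EF and 2.04, 3.01 and 2.48 CPM in DAF libraries. WT-EF thus brought ISL1 back to the iLuc level, at 104% of its mean. VAX1, a homeobox factor of the ventral forebrain, reached 85.7% of its iLuc mean, at 13.2, 14.4 and 11.7 CPM in iEF, 30.9, 38.7 and 53.4 CPM in WT-EF and 14.5, 15.04 and 13.9 CPM in DAF libraries.

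SOX1, which marks neural progenitors (chr13:112721463-112726020), and KLF15, a Krüppel-like factor of metabolism, were restored to a smaller extent. SOX1 was at 42.7, 53.0 and 43.9 CPM in iLuc, 2.39, 2.87 and 1.80 CPM in iEF, 7.06, 11.97 and 12.4 CPM in WT-EF and 1.76, 2.30 and 1.91 CPM in DAF libraries. KLF15 was at 19.6, 15.9 and 22.8 CPM in iLuc, 1.02, 1.38 and 0.960 CPM in iEF, 3.68, 4.41 and 7.24 CPM in WT-EF and 0.668, 2.22 and 1.27 CPM in DAF libraries. For both genes every WT-EF library lay below every iLuc library, and WT-EF reached 22.5% of the iLuc mean for SOX1 and 26.3% for KLF15.

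NEUROD6, with the longest GGAA run printed above, was nearly silent in iEF cells. It had 0, 2 and 0 counts in iEF and 0, 2 and 0 counts in DAF libraries, against 35, 73 and 38 counts in iLuc and 16, 44 and 84 counts in WT-EF libraries. Taken against a floor of 3 counts per iEF library, it was at least 14.4-fold higher with WT-EF and at least 15.9-fold higher in iLuc. CHAT, which makes acetylcholine, showed the same distribution, with 1, 3 and 3 counts in iEF, 1, 2 and 3 in DAF and 17, 56 and 83 in WT-EF libraries, at least 15.6-fold higher with WT-EF. For these 2 members every iEF and DAF library held at most 3 counts, so no fold is given between DAF and iEF.

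Neuronal genes were spread over several functions. RIMS3, a protein of the presynaptic release site, was at 26.3, 30.9 and 18.7 CPM in iLuc, 1.498, 3.41 and 2.33 CPM in iEF, 5.90, 9.72 and 19.5 CPM in WT-EF and 1.65, 3.11 and 2.31 CPM in DAF libraries. SYT6, a synaptotagmin, was at 8.70, 9.41 and 6.49 CPM in iEF, 27.3, 21.2 and 24.4 CPM in WT-EF and 10.2, 11.3 and 7.11 CPM in DAF libraries. Both genes had all WT-EF libraries above all DAF libraries, and the 3 WT-EF values of RIMS3 were spread more widely than those of SYT6. CLSTN2, a calsyntenin of the postsynaptic membrane, was at 23.2 ± 2.52 CPM (SD, n = 3) in iEF, 71.2 ± 1.11 CPM in WT-EF and 23.7 ± 6.11 CPM in DAF libraries. NECAB1, a neuronal calcium-binding protein, was at 0.379 ± 0.205 CPM in iEF, 1.85 ± 0.938 CPM in WT-EF and 0.485 ± 0.335 CPM in DAF libraries, and its WT-EF and DAF libraries overlapped.

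Members among the potassium channel genes had few counts. KCNAB3, an auxiliary subunit, was at 0.420, 0.674 and 0.582 CPM in iEF, 1.16, 1.98 and 4.02 CPM in WT-EF and 0.633, 0.607 and 0.469 CPM in DAF libraries. KCNIP1 was at 0.131, 0.674 and 0.175 CPM in iEF, 0.554, 1.14 and 1.89 CPM in WT-EF and 0.176, 0.211 and 0.503 CPM in DAF libraries. The WT-EF and iEF libraries of KCNIP1 overlapped, so its membership rests on means whose replicates were not separated.

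Signalling and transport genes were also among the members. MAP2K6, a kinase that activates p38, was at 20.1 ± 3.06 CPM (SD, n = 3) in iLuc, 2.16 ± 1.26 CPM in iEF, 8.62 ± 2.69 CPM in WT-EF and 2.31 ± 0.364 CPM in DAF libraries. PPP1R1B, the dopamine-regulated phosphatase inhibitor DARPP, was at 0.630 ± 0.281 CPM in iEF, 4.75 ± 1.82 CPM in WT-EF and 0.576 ± 0.178 CPM in DAF libraries. PDE6A, the rod photoreceptor phosphodiesterase, was at 0.170 ± 0.0915 CPM in iEF, 1.09 ± 0.764 CPM in WT-EF and 0.184 ± 0.141 CPM in DAF libraries. In each of these genes the DAF mean was within the spread of the iEF libraries. The solute carriers were SLC16A12 and the aromatic amino acid transporter SLC16A10. SLC16A12, with the intronic GGAA run, was at 0.158, 0.540 and 0.436 CPM in iEF, 1.41, 3.14 and 4.79 CPM in WT-EF and 0.246, 0.607 and 0.469 CPM in DAF libraries, and SLC16A10 was at 0.788, 1.35 and 1.16 CPM in iEF, 1.58, 4.28 and 6.04 CPM in WT-EF and 0.773, 1.27 and 0.738 CPM in DAF libraries. GPC2, a cell-surface proteoglycan, was at 1.49 ± 0.586 CPM in iEF, 4.62 ± 1.72 CPM in WT-EF and 1.61 ± 0.489 CPM in DAF libraries.

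The members with the most counts had widely different functions. NRDC, the metallopeptidase nardilysin (chr1:52254863-52344477), was at 2059, 2874 and 2031 CPM in iLuc, 286, 388 and 290.1 CPM in iEF, 817, 1319 and 1552 CPM in WT-EF and 299, 346 and 312 CPM in DAF libraries. SLAIN1 (chr13:78271822-78338377), with a GGAA run upstream, was at 387, 368 and 356 CPM in iLuc, 133, 163 and 100.2 CPM in iEF, 474, 528 and 524 CPM in WT-EF and 133, 160.4 and 104 CPM in DAF libraries. In SLAIN1 every WT-EF library exceeded every iLuc library, and DAF minus iEF lay between -0.02 and 0.05 in the 3 sets. DCLRE1A, a nuclease that repairs DNA crosslinks (chr10:115594484-115614142), was at 52.2, 58.4 and 46.2 CPM in iEF, 170.4, 181 and 201.5 CPM in WT-EF and 42.1, 56.0 and 41.1 CPM in DAF libraries. TRMT9B, a putative tRNA methyltransferase, was at 89.2, 118 and 73.3 CPM in iEF, 321, 429 and 569 CPM in WT-EF and 77.2, 129 and 73.9 CPM in DAF libraries. NRDC, SLAIN1, DCLRE1A, TRMT9B, SALL2, RIMS3, ISL1 and SBK1, a protein kinase, were the 8 members that each of 11 other forms of the rule also chose. Leaving out replicate set 1, 2 or 3 in turn, 11 members were chosen each time and 6 never. Per kilobase of exon (RPKM), NRDC had the highest WT-EF level of the members at 185, followed by SLAIN1 at 115, DCLRE1A at 40.2, JAKMIP2 at 38.3 and TRMT9B at 29.97.

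JAKMIP2, a coiled-coil protein that binds microtubules, was less tightly held near iEF, with DAF minus iEF of 0.40, -0.36 and 0.64 in sets 1, 2 and 3. COCH, the extracellular protein cochlin of the inner ear, was at 14.1, 12.7 and 16.0 CPM in iEF, 37.6, 48.7 and 49.6 CPM in WT-EF and 13.8, 17.7 and 14.1 CPM in DAF libraries. RHOH, with a run of 16 repeats in its intron, was at 16.4, 16.9 and 13.8 CPM in iEF, 39.4, 46.6 and 48.1 CPM in WT-EF and 17.7, 19.5 and 18.7 CPM in DAF libraries. It was the single member whose DAF libraries all exceeded its iEF libraries, where 16.7% of all genes did so, and its DAF log2 fold change was 0.24 (standard error 0.10).

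**Figure D4:**
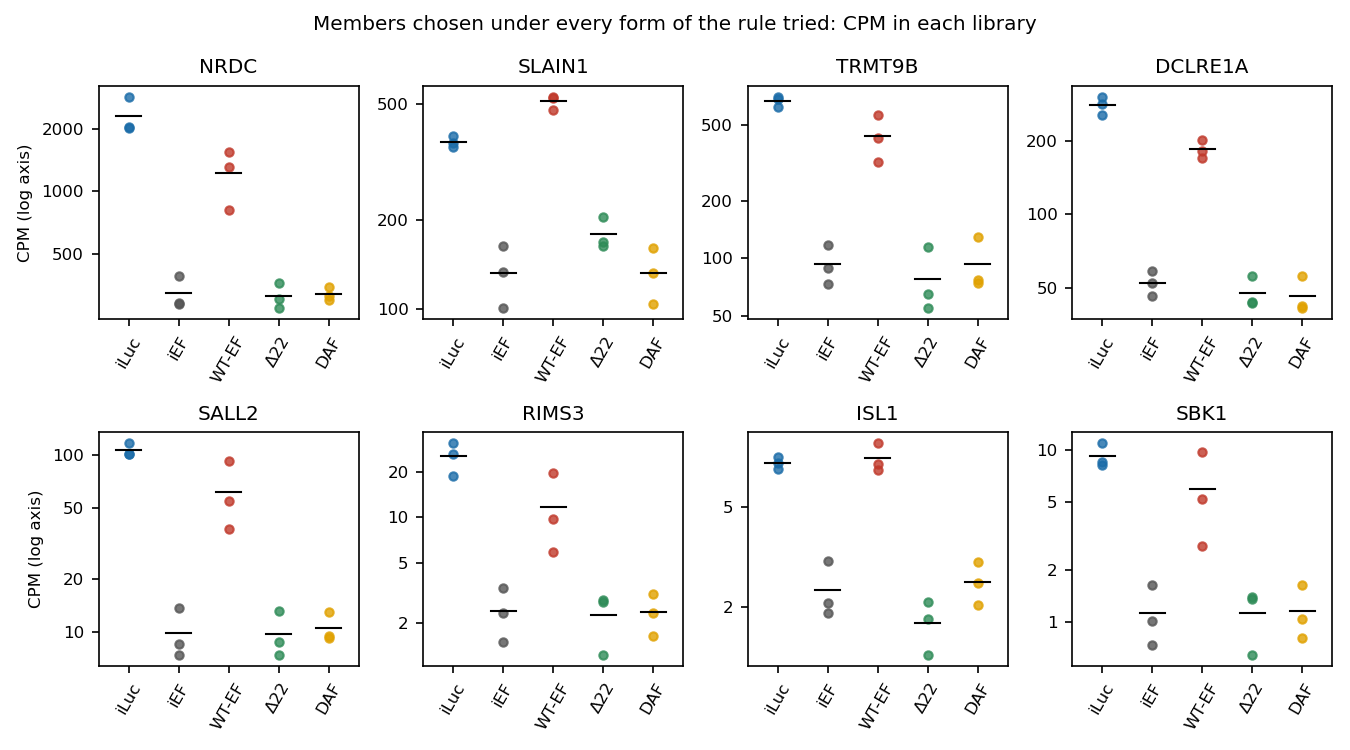
CPM on log axes in each of the 3 libraries (points) of each condition, with the mean as a bar, for the 8 members that 11 other forms of the rule also chose. In all 8 genes the WT-EF points lie above the iEF and DAF points, for example 38.2, 54.9 and 92.0 CPM with WT-EF against 9.56, 13.1 and 9.29 CPM with DAF for SALL2. The rule that chose these genes favours this separation.

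The largest WT-EF differences belonged mostly to genes with few counts. ATP5F1AP4, a pseudogene of an ATP synthase subunit, led with a difference of 4.32 in log2 CPM and 32, 37 and 196 counts in the WT-EF libraries against 0, 2 and 1 in iEF. Most of its WT-EF counts came from library 3, and reads of its parent gene could be shared with it. LINC02253, a long noncoding RNA, was at 7.82, 6.48 and 8.09 CPM in iLuc, 0.210, 0.540 and 0.145 CPM in iEF, 4.49, 6.00 and 8.60 CPM in WT-EF and 0.141, 0.448 and 0.235 CPM in DAF libraries. ENSG00000266578 was at 17.8, 20.2 and 15.6 CPM in iLuc, 1.52, 2.90 and 0.931 CPM in iEF, 14.7, 21.9 and 27.5 CPM in WT-EF and 1.16, 2.51 and 0.939 CPM in DAF libraries. In both of these noncoding or unnamed genes the WT-EF libraries were separated from the DAF libraries by a wide margin.

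MORC1, which silences transposons in the germ line, was at 1.74, 3.12 and 2.93 CPM in WT-EF and 0.0703, 0.607 and 0.201 CPM in DAF libraries. SLAMF1, a receptor of immune cells, was at 1.94, 8.35 and 9.67 CPM in WT-EF and 0.316, 0.528 and 0.972 CPM in DAF libraries. ENSG00000232243, which matched neither a symbol nor the annotation, had 26, 53 and 74 counts in WT-EF and 0, 6 and 2 in DAF libraries. The mast cell tryptases TPSAB1 and TPSB2 lie 10195 bases apart on chromosome 16 and have near-identical sequences, so counts could not be assigned to either with certainty and they may amount to 1 measurement. They were at 1.66, 1.61 and 1.30 CPM and 1.52, 1.00 and 1.36 CPM in WT-EF libraries and at 0, 0.448 and 0.235 CPM and 0.0703, 0.158 and 0.101 CPM in DAF libraries. Beyond the tryptases, 29 of 71 annotated members have exons that overlap in position with those of another gene, on the same or the opposite strand. The share over all genes was not computed. Whether counting used the strand is not given in the sources used here.

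Δ22 lacks nearly all of the EWS domain, and its difference from iEF was not part of the rule. The comparison shares the iEF libraries that the rule used, and the Δ22 libraries entered the mean count and the TMM factors. The median Δ22 difference over the members was -0.01 in log2 CPM (-0.94 to 0.90), with -0.08, -0.01 and 0.16 in sets 1, 2 and 3, and the median over all genes was -0.01. At an adjusted p under 0.05 in the edgeR fit, 0.472% of all genes were called higher and 0.83% lower, and none of the 72 members was called in either direction. At an unadjusted p under 0.05 the same fit gave 2 members higher and 2 lower, and 1865 and 2053 of all genes, while DESeq2 called 1 member and had 4 at an unadjusted p under 0.05. Δ22 was within 0.25 of iEF for 58.3% of members and for 66.9% of all genes. The Δ22 libraries lay wholly above the iEF libraries for 5 members, PLS1, SLAIN1, ENSG00000224945, TUBB8P8 and NLRP11 (8.81% of all genes), and wholly below for none (12.6% of all genes). A member with 0 counts in an iEF library, such as NEUROD6 or ATP5F1AP4, could not lie wholly below. Other members with few iEF counts had little room to fall, so the absence of lower members is partly set by the rule. Leaving out a replicate set, or 1 Δ22 or iEF library, moved the counts over all genes from 136 higher to between 0 and 270 and from 239 lower to between 0 and 359. Each of these 9 omissions changed the higher count by over 1.5 times, and the count of members called was 0 in each.

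SLAIN1 had the smallest p of the members. Its Δ22 libraries were at 169, 205 and 164 CPM, all above the iEF libraries, for a log2 fold change of 0.45 with a standard error of 0.12 (adjusted p = 0.0893, edgeR). It was the member that DESeq2 called, with an adjusted p of 0.0222, and over all alternatives its adjusted p ran from 0.00109 to 0.362. The next were ENSG00000224945, without a symbol, at 0.96 (adjusted p = 0.159, edgeR) and TUBB8P8, a tubulin pseudogene, at 0.92 (adjusted p = 0.419). SYT6 and FAM78A followed, with adjusted p of 0.513 and 0.515 in that fit. In the other direction SOX1 was at 1.70, 2.06 and 0.715 CPM with Δ22, a log2 fold change of -0.65 with a standard error of 0.27 (adjusted p = 0.291, edgeR), and the long noncoding RNA LINC01315 at -1.03 (adjusted p = 0.312). QRFPR, a neuropeptide receptor, ISL1 and AKAP7, an anchor of protein kinase A, had log2 fold changes of -0.48, -0.41 and -0.33 with adjusted p of 0.3996, 0.429 and 0.430 in the edgeR fit. None of these differences passed the test in that fit.

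The rule was also applied to 2 replicate sets at a time and the genes so chosen were read in the set left out. Leaving out set 1, 2 or 3 gave 92, 77 and 46 genes, of which 51, 42 and 25 were among the 72. In the unused set their WT-EF median was 1.61, 1.62 and 2.95, against medians of -0.06, -0.03 and -0.07 over all genes. Their DAF median was 0.03, 0.10 and 0.19, and 31, 28 and 13 of the genes fell within the DAF window there. On means of 3 libraries, DAF was within 0.25 of iEF for 53.7% of all genes with a mean count of at least 20. That share was not computed for a single set. The rise with WT-EF was thus present in libraries that had not chosen the genes. The median with DAF stayed under 0.20, but most of the genes left the window in the unused set. In sets 1, 2 and 3, 31, 33 and 23 genes lay above it and 30, 16 and 10 below it. With set 3 left out, 10 of 46 genes (21.7%) exceeded iEF by more than 1 with DAF in that set, against 6.98% of all genes. With set 1 left out, 5 of 92 did so (5.43%, against 4.22% of all genes). With set 2 left out, 5 of 77 did so (6.49%, against 4.83%). The Δ22 medians were -0.06, 0.12 and 0.08.

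**Figure D5:**
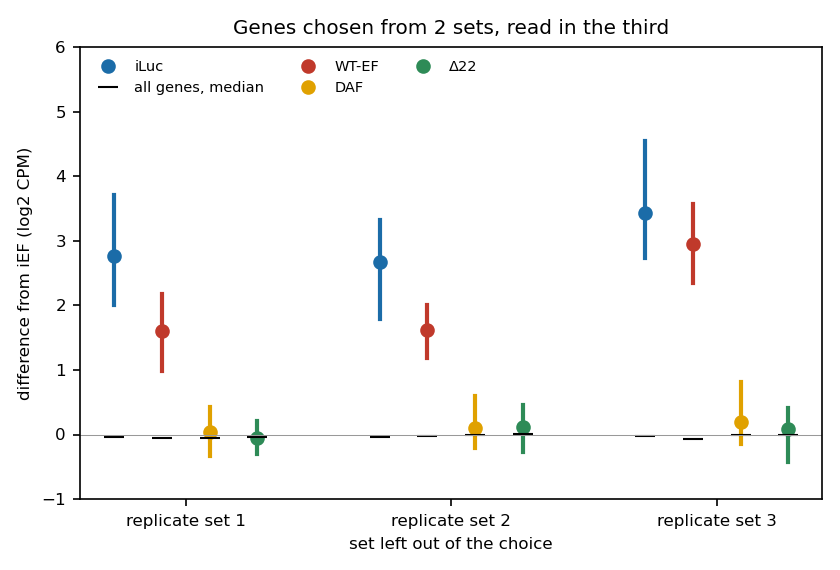
Median difference from iEF in log2 CPM (points) with the middle 50% of genes (bars) for the 92, 77 and 46 genes chosen without replicate set 1, 2 or 3, read in that set, for iLuc, WT-EF, DAF and Δ22. Black dashes mark the median of all genes that met the count minimum. WT-EF stands at 1.61, 1.62 and 2.95, and DAF at 0.03, 0.10 and 0.19.

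The limits of the rule pass through continuous distributions. Just inside the WT-EF limit were RHOH and USP44, a deubiquitinase, at 1.5 and 1.51, and just outside were HMGB1P41 and C10orf95-AS1 at 1.46 and 1.44. At the upper edge of the DAF window NECAB1 and RHOH were inside at 0.2498 and 0.2480 while CCDC181 and H1-6 were outside at 0.2502 and 0.2635, and at the lower edge SLC16A10 and SOX1 were inside at -0.24 and -0.22 while NUP210 and SMR3B were outside at -0.26 and -0.26. The iLuc limit separated LINC01315 and TUBB8P8, at 1.20 and 1.33, from AVPR1A and FRZB at 0.92 and 0.36. NEUROD6 and TUBB8P8 had mean counts of 20 and 20.7, and MYBPC1 and SNRPF-DT, at 19.5 and 18.9, missed the count minimum.

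The activated genes that the study names were not members. NKX2-2, a homeodomain factor of Ewing sarcoma, was at 0.946, 1.01 and 0.873 CPM in iEF, 2.22, 2.14 and 2.69 CPM in WT-EF and 0.738, 1.27 and 0.771 CPM in DAF libraries. Its DAF difference of -0.06 was within the window, but its WT-EF difference of 1.26 missed the limit of 1.5. SOX2, a stem cell factor, with 1.20 for WT-EF and -0.03 for DAF, and HOXD13, a factor of limb development, with 1.23 and -0.05, missed it in the same way. HOXD10, at 0.67 and 0.11, missed the iLuc and the WT-EF limits. GLI1, the effector of Hedgehog signalling, had a WT-EF difference of 3.24 and a DAF difference of 0.56, above the window. NR0B1, a nuclear receptor next to a GGAA run, GSTM4, a glutathione transferase, and FCGRT, the neonatal Fc receptor, rose with DAF by 2.26, 1.25 and 3.06 on the log2 scale (adjusted p = 0.00143, 0.00189 and 1.33e-05, edgeR). HOXD9 and HOXD11 missed the WT-EF limit, HOXD11 also the iLuc limit, and both lay above the DAF window, at 0.31 and 0.27.

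Gene lists defined by symbol place the members among their families. Here rose and fell mean an adjusted p under 0.05 against iEF in the edgeR fit, which called 12.9% of all genes higher and 17% lower with WT-EF and 5% and 6.19% with DAF. Of 2617 genes in 15 lists that were tested, 575 rose and 626 fell with WT-EF, and 287 rose and 303 fell with DAF. Members were 16 of these 2617 genes and 72 of all 28793 genes tested. At that share a short list would often hold no member, so the absence of members from a list is not a result. The median log2 fold change over these lists was 0.00 with WT-EF and 0.05 with DAF, and over all genes tested -0.01 and 0.00. Without replicate 1 of every condition the DAF counts over the lists were 169 and 132, and without replicate 2 they were 113 and 122. Of 125 homeodomain factors, 40 rose and 30 fell with WT-EF and 14 rose and 15 fell with DAF, with median log2 fold changes of 0.13 and -0.03. ISL1 was a member in this list, while VAX1, also a homeobox factor, was not covered by its symbols. Of 103 developmental zinc finger and bHLH factors, 28 rose and 27 fell with WT-EF and 12 rose and 11 fell with DAF, and KLF15, NEUROD6 and SALL2 were members. Of 68 SOX, forkhead and T-box factors, 11 rose and 22 fell with WT-EF and 6 rose and 9 fell with DAF, and SOX1 was the member. Of 171 ion channels, 43 rose and 33 fell with WT-EF and 28 rose and 10 fell with DAF. Of 96 synaptic genes, 32 rose and 15 fell with WT-EF and 23 rose and 3 fell with DAF, and RIMS3 and SYT6 were members. Of 382 signalling enzymes and regulators, 60 rose and 131 fell with WT-EF and 37 rose and 41 fell with DAF. Of 297 solute carriers, 49 rose and 69 fell with WT-EF and 31 rose and 21 fell with DAF. Of 165 extracellular matrix genes, 11 rose and 97 fell with WT-EF and 12 rose and 33 fell with DAF, and GPC2 was the member. No member was among the 41 known EWS/FLI targets, of which 31 rose and 4 fell with WT-EF and 19 rose and 4 fell with DAF, nor among the 493 numbered zinc finger genes, of which 24.9% rose and 38 genes fell with WT-EF while 24 rose and 23 fell with DAF. The list of 170 cell cycle genes held no member, and there 26 rose and 40 fell with WT-EF while 10 rose and 88 fell with DAF, with a DAF median of -0.39. No member was in the lists of 83 neurotransmitter and neuropeptide receptors (22 rose and 12 fell with WT-EF, 13 and 1 with DAF), 184 axon guidance genes (51 and 45 with WT-EF, 29 and 17 with DAF), 139 growth factors and receptors (31 and 52 with WT-EF, 18 and 22 with DAF) or 127 chromatin regulators (34 and 16 with WT-EF, 19 and 10 with DAF). The member QRFPR, a neuropeptide receptor, was not covered by the symbols of the receptor list.

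In gene type the members were like the rest, with 61 of 71 coding for protein (85.9%, against 85.2% of all annotated genes that met the count minimum) and 7 long noncoding RNAs (9.86%, against 8.65%). They lay on 21 chromosomes with at most 7 on any of them. The median exon length was 4815 bases for members and 5057.5 bases for all genes, and the median gene span was 52418 and 30290 bases.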

How the data were processed

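RNA-seq libraries of A673 cells were grouped by the condition and replicate number in the deposited labels, giving 5 conditions (iLuc, iEF, WT-EF, Δ22, DAF) of 3 libraries. Per the study's methods, paired-end reads were aligned to hg19 with STAR (version 2.5.1b in the submitters' processing notes) and htseq-count assigned them to genes (intersection-strict). The values used are the counts that the authors deposited, whole numbers without normalization for 57820 gene identifiers. A table of other values, counts adjusted for batch with ComBat by the authors, covers 27002 genes and 69 of the members and served as an alternative. The authors' own fold changes and p-values, and 3 columns of other samples, were not used.

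Members were chosen from TMM log2 CPM with a prior count of 2, TMM factors being computed over genes that averaged at least 1 count (28793). Members, lists and tests were chosen with earlier results of these data known. The same genes were fitted with edgeR 4.0.16 in R 4.3.3, as 1 quasi-likelihood model over the 15 libraries, with condition and the replicate number as a block, since the study adjusted each replicate set for batch. Deviations from condition means correlated with a median r of 0.18 over 30 pairs of libraries that share a number and -0.08 over 60 pairs that do not. The ranges overlapped, from -0.15 to 0.71 and from -0.51 to 0.36. Deviations cancel out within a condition, so both medians are not independent of each other. Adjusted p-values are Benjamini-Hochberg values over all genes tested. The fit was tried on simulated counts with the same dispersion for every gene and no replicate-set effect. That trial does not cover the spread between replicate sets seen here. Alternatives covered DESeq2 1.42.0, size factors, filters, prior counts, the block, the TMM gene set and omitted libraries. Gene starts came from GENCODE 44 on GRCh37, promoters from RefSeq. RPKM values are TMM CPM per kilobase of exon. Floors of 3 counts cover counting error only.

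Genes named are FLI1, activated genes the study names, list members, the 10 members with the largest WT-EF difference or the most WT-EF counts, the 5 with the smallest Δ22 p in each direction, genes at the rule's limits and those with a sequence shown. IL1RAPL2, C6, SBK1, PLS1, NLRP11 and ENSG00000224945 were named after their values were seen. A few genes, among them 1 member, are not reported here, but counts and medians include them.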

Additional observations from a re-analysis of the deposited data

How the results depend on the processing

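The choice of members depended on the processing. The direction of their iLuc and WT-EF medians was fixed by the rule, so its constancy is not a result. Against 72 members, a count minimum of 100 gave 36, and leaving out replicate set 1, 2 or 3 gave 46 to 92, with 46 when set 3 was left out. ComBat-adjusted counts gave 51 genes (33 of them members), total counts alone 92 (58), DESeq2 size factors 68 (66), and prior counts of 0.5 and 5 gave 68 (63) and 73 (61). TMM factors over every gene and over genes with a mean count of at least 20, both chosen after the data were seen, gave 66 (66) and 67 (61). The Δ22 median of the genes chosen without set 3 was 0.19 in that set with a prior count of 0.5, against 0.08.

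For Δ22 against iEF over all genes (136 higher and 239 lower), DESeq2 gave 463 and 615, no filter on low counts 784 and 730, and the fit with no replicate block 50 and 125. The fit of the 6 libraries compared gave 231 higher. Omitting libraries or replicate sets gave 0 to 270 higher and 0 to 359 lower. Of the members, SLAIN1 was called under DESeq2 and with no filter (1 member each), and the fit with no replicate block called 0. Over the gene lists, omitting a replicate set gave 113 to 291 genes higher with DAF and 122 to 255 lower. More list genes were lower than higher with WT-EF (575 higher and 626 lower) and with DAF (287 and 303). Both orders turned with DESeq2 (652 and 607, 375 and 338), with its size factors in edgeR (625 and 594, 296 and 287) and without set 3 (547 and 530, 291 and 255), and that of DAF also without set 1 (169 and 132). The Δ22 median of the members, -0.01, turned positive without set 1 (0.06) or set 2 (0.02), with ComBat-adjusted counts (0.05), total counts alone (0.02) and DESeq2 size factors (0.0034), and with TMM over genes with a mean count of at least 20 (0.01). The causes of these shifts were not tested. A prior count of 2 shrinks the differences of members with few counts, and 25 members averaged under 50 counts.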
